A study of Mus musculus with 4 samples.

Results

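The genes described here encode the Tal1-Lmo2-Ldb1 complex and its E protein partners, here in red cell progenitors sorted from mouse fetal liver. They are 10 of the 35927 genes with counts in all libraries, taken by gene symbol: the bHLH genes Tal1 and Lyl1, the LIM adaptor genes Lmo2, Lmo4 and Ldb1, the E protein genes Tcf3, Tcf4 and Tcf12, and the Ldb1 cofactor genes Ssbp2 and Ssbp3. Each symbol matched 1 row, and all 10 passed the filter on low counts.

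Cells from C57BL/6 livers at embryonic day 13.5 were CD71+ and TER119-: they carried the transferrin receptor on their surface and not yet the TER119 antigen of more mature red cell precursors. The 2 mutant libraries came from Rcor1-/- embryos, which carry no wild-type copy of the gene for the CoREST corepressor scaffold. The 2 control libraries came from pools of Rcor1+/+ and Rcor1+/- embryos, in a proportion not given in the sources used here. Each library pooled RNA of several fetal livers, so the spread within a group is a spread between pools and not between embryos. In such bulk RNA, fewer cells of a type and less RNA per cell cannot be told apart.

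In textbook accounts, Tal1 or its relative Lyl1 pairs with an E protein and the pair binds the E-box, a short DNA element. Lmo2 has no DNA-binding domain and joins this pair to Ldb1 and to a GATA factor, while Ssbp proteins bind Ldb1 and protect it from degradation. Ldb1 can bring distant enhancers to promoters, and the assembled complex activates many red cell genes. Id proteins lack the DNA-binding region and hold E proteins in inactive pairs.

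The complex is known for sites that join an E-box part to a GATA element, and promoter sequences are shown here for Tal1 and Tcf3, the bHLH member that names the complex and the member with the largest fall. Both windows are the 250 bases before the most upstream RefSeq start of the gene, on GRCm38.p6, read 5′ to 3′ on the gene's strand. Capitals mark an E-box (CANNTG), a GATA motif (AGATAA or TGATAA on either strand), or a composite of CTG and GATA with 8 or 9 bases between them.
Tal1, chr4:115056176-115056425, plus strand: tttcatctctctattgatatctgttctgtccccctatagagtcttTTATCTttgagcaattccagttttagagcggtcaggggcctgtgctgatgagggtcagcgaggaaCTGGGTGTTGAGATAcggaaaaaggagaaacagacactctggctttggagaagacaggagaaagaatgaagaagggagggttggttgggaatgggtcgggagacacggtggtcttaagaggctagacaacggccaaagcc
Tcf3, chr10:80433636-80433885, minus strand: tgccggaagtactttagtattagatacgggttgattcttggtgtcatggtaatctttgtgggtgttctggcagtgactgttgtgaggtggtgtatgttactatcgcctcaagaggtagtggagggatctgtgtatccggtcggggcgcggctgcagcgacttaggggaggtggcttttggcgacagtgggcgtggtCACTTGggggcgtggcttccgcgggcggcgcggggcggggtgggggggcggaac

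The Tal1 window held 1 GATA motif and 1 composite and no E-box, and the Tcf3 window held 1 E-box and no GATA motif or composite. Of 32851 mouse promoter windows of the same length, 66.2% held an E-box, 16.6% a GATA motif and 4.01% a composite, both strands searched and overlaps between motifs allowed. RefSeq windows were found for 8 of the 10 genes, those other than Lmo2 and Tcf4. Lyl1 and Tcf12 each held 1 E-box, and Lmo4, Ldb1, Ssbp2 and Ssbp3 held none of these motifs. The AAATC core known from Gfi1 family sites was in none of the 8 windows and in 32.7% of all windows. These are matches of letters and do not show binding.

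Read totals were 26892375 and 22817080 in the controls and 25186819 and 15053229 in the mutants. Rcor1 itself had 4083 and 3807 counts in the controls and 2061 and 1240 in the mutants, a change of -1.09 ± 0.06 (adjusted p = 4.6e-11). Levels below are CPM, read counts scaled to library size with TMM factors, and changes are log2 fold changes of mutant over control ± standard error, with edgeR's quasi-likelihood test and p-values adjusted by Benjamini-Hochberg over all 13140 genes tested. All 10 erythroid markers, from Tfrc, which encodes CD71, to Slc4a1, were present and lower in the mutants. Their summed level was 7254 and 7397 CPM in the controls and 4788 and 4646 CPM in the mutants.

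Most of the core complex was lower in the mutant progenitors, by modest amounts, while Lmo4 was higher. Of the 10 genes, 6 fell, 2 rose and 2 did not pass the test, with a median change of -0.25, and in 8 of 10 the libraries of the groups did not overlap, against 77.9% of all tested genes. Over all tested genes 57.5% were called, 28.3% higher and 29.2% lower, with a median of 0.01. Among the 6073 genes with a mean level at least that of the lowest member (31.3 CPM), 68.3% were called, 20.5% higher and 47.8% lower. Lower calls were thus common among genes of this abundance, and the 6 falls stand beside that share.

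**Figure D1:**
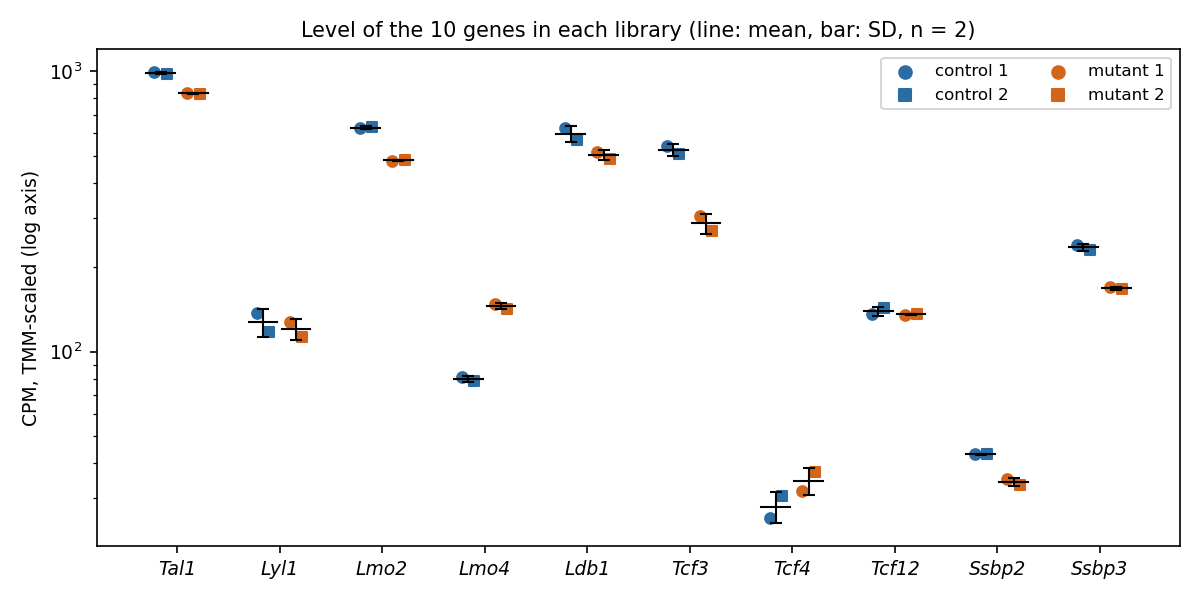
CPM of the 10 genes on a log axis in each control (blue) and mutant (orange) library, with the mean and SD of each group (n = 2). The groups overlap for Lyl1 and Tcf12 only, and Lmo4 and Tcf4 are the genes with higher mutant levels.

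Tal1, the bHLH factor that is required for blood formation, had 992 and 980 CPM in the controls and 834 and 830.4 CPM in the mutants. Both mutant libraries lay below both controls. The change was -0.24 ± 0.04 (adjusted p = 5.24e-05), a fold of 0.844. Its relative Lyl1, which can pair with the same E proteins, had 138 and 117 CPM in the controls and 128 and 113 CPM in the mutants. The groups overlapped, since control 2 lay below mutant 1. The change of -0.08 ± 0.09 did not pass (adjusted p = 0.463), with a 95% interval from -0.28 to 0.12. Control replicate 2 bore on this value: without it the change of Lyl1 was -0.20 (adjusted p = 0.00326), and without control replicate 1 it was 0.03 (adjusted p = 0.701).

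Lmo2, the LIM-only bridge of the complex, had 625 and 634 CPM in the controls and 478 and 482 CPM in the mutants. The groups were apart, and the libraries within each were close. The change was -0.39 ± 0.04 (adjusted p = 3.95e-07). Lmo4, a LIM-only protein that also binds Ldb1, went the other way, from 81.3 and 78.6 CPM in the controls to 148 and 143 CPM in the mutants. Both mutant libraries were above both controls, and the change of 0.86 ± 0.05 was a 1.82-fold rise (adjusted p = 4.49e-10).

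Ldb1, the LIM-binding scaffold that both adaptors attach to, had 626 and 569 CPM in the controls and 515 and 486 CPM in the mutants. The control libraries differed by more than those of Lmo2, and the groups still did not overlap. The change was -0.25 ± 0.05 (adjusted p = 0.000372). The single-stranded DNA binding gene Ssbp3 had 241 and 231 CPM in the controls and 170 and 167 CPM in the mutants, with all mutant values lower. It changed by -0.49 ± 0.05 (adjusted p = 1.34e-07). Ssbp2, its paralog, had 43.2 and 43.1 CPM in the controls and 35.3 and 33.6 CPM in the mutants, again without overlap. It changed by -0.32 ± 0.08 (adjusted p = 0.00158).

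The E proteins changed unequally. Tcf3, whose products E12 and E47 are the usual partners of Tal1 in red cell precursors, had 540.3 and 505 CPM in the controls and 303 and 270 CPM in the mutants. Every mutant value was well below the controls, and Tcf3 fell furthest of the 10 genes, by 0.86 ± 0.06 on the log2 scale (adjusted p = 1.2e-08), a level at 0.549 of the control. Tcf12, which encodes the E protein HEB, had 136 and 143 CPM in the controls and 136 and 136 CPM in the mutants. Its groups overlapped, and the change of -0.04 ± 0.05 did not pass (adjusted p = 0.569). Its 95% interval ran from -0.14 to 0.07, and that of Tcf3 from -0.98 to -0.74.

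Tcf4, an E protein best known from plasmacytoid dendritic cells and B cells, had the lowest mean CPM of the 10 genes over all libraries. It had 25.5 and 30.5 CPM in the controls and 32.0 and 37.3 CPM in the mutants. The groups did not overlap, but control 2 and mutant 1 were close. Its rise of 0.30 ± 0.10 passed (adjusted p = 0.0185) and was lost without control replicate 1 (0.17, adjusted p = 0.144) and without mutant replicate 2 (0.20, adjusted p = 0.187). Of 8 plasmacytoid dendritic and B cell markers, Bst2 and Cd79b were tested, and Bst2 rose (0.45). Cd79b had 10 and 15 control counts and 116 and 59 mutant counts, and passed the filter on low counts only with its mutant libraries. Siglech had no count in any library, and Cd79a and Ebf1 had 0 in at least 1 library. The summed level of the list was 41.2 and 41.5 CPM in the controls and 60.5 and 58.8 CPM in the mutants. Most of this sum was Bst2, with 40.6 and 40.6 CPM in the controls and 55.8 and 54.8 CPM in the mutants. Endothelial markers, another setting in which Tcf4 is expressed, rose in 5 of 8 cases, against 28.3% of all tested genes. Cdh5 (0.09), Stab2 (0.15) and Lyve1 (-0.33) did not pass. The sum of the endothelial list was 13.6 and 12.3 CPM in the controls and 33.2 and 33.1 CPM in the mutants. Whether such cells had a part in the rise of Tcf4 was not tested.

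**Figure D2:**
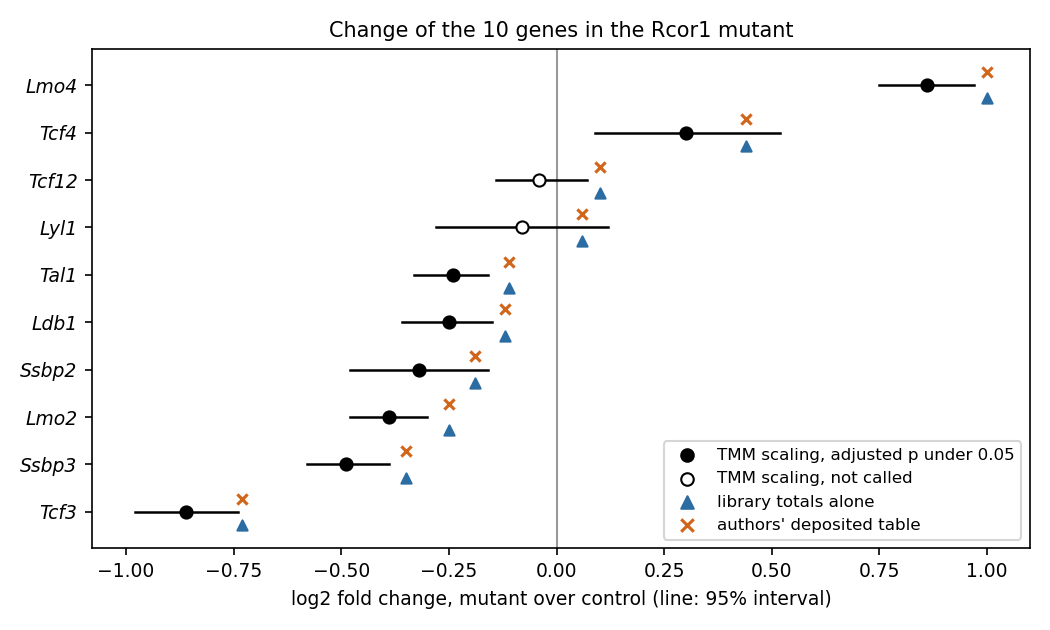
Log2 fold change of mutant over control for the 10 genes with its 95% interval under TMM scaling (circles, filled where adjusted p is under 0.05), with the value under library totals alone (triangles) and in the authors' deposited table (crosses). Tcf3 (-0.86) and Lmo4 (0.86) lie at the ends, and Lyl1 and Tcf12 change sign between scalings.

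The distance of each change from 0 depended on how libraries were scaled. TMM left the median change over all genes at 0.01, with 3723 called genes higher and 3835 lower. Scaling by library totals put that median at 0.15, with 5112 genes higher and 2553 lower, and upper quartile scaling put it at 0.09, with 4423 higher and 3088 lower. Under library totals Tal1 was at -0.11, Ldb1 at -0.12 and Lmo2 at -0.25, and each still passed. These values are measured against 0 and moved with the median of all genes, so the distance of these genes from that median was much the same under both scalings. The authors' deposited table gave log2 fold changes of -0.11 for Tal1, -0.12 for Ldb1, -0.19 for Ssbp2, -0.73 for Tcf3 and 1.00 for Lmo4. In the authors' deposited table the FDR adjusted p was 0.246 for Tal1, 0.199 for Ldb1 and 0.0747 for Ssbp2, and 2.23e-23 for Tcf3 and 4.45e-38 for Lmo4. The fall of Tcf3 and the rise of Lmo4 were thus called in both sources. The falls of Tal1, Ldb1 and Ssbp2 were called in the fit used here and not in the deposited table. Under library totals Tal1, Ldb1 and Ssbp2 had the log2 fold changes of the deposited table and still passed. DESeq2 and limma-voom also called all of them.

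Levels were compared between genes as CPM per kilobase of exon, using the union of exons of the GENCODE gene with the same identifier. In the controls Lmo2 was highest at 290.5 ± 2.78 CPM per kilobase (SD, n = 2), followed by Tal1 at 225 ± 1.89. Ldb1 and Tcf3 came next at 129.7 ± 8.73 and 129 ± 6.15, and these neighbours overlapped. Lyl1 had 70.9 ± 8.04, Ssbp3 35.8 ± 1.02, Lmo4 22.6 ± 0.533, Tcf12 8.97 ± 0.316, Ssbp2 5.40 ± 0.0134 and Tcf4 1.02 ± 0.128. No other neighbours in this order overlapped.

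In the mutants the first 4 places were held in the same order, but Ldb1 at 109 ± 4.46 CPM per kilobase no longer overlapped with Tcf3 at 71.0 ± 5.82, which now overlapped with Lyl1 at 66.9 ± 5.70. Lmo4, at 41.1 ± 1.03, passed Ssbp3, at 25.6 ± 0.318. Tcf4 and Tcf12 have many alternative exons, so their exon unions are 27382 and 15529 bases and the values per kilobase of exon are low estimates. With the longest transcript as the length, a choice made after seeing the data, Tcf4 was still last at 3.27 ± 0.409 in the controls, and Lmo4 at 86.9 ± 2.18 in the mutants moved above Lyl1.

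**Figure D3:**
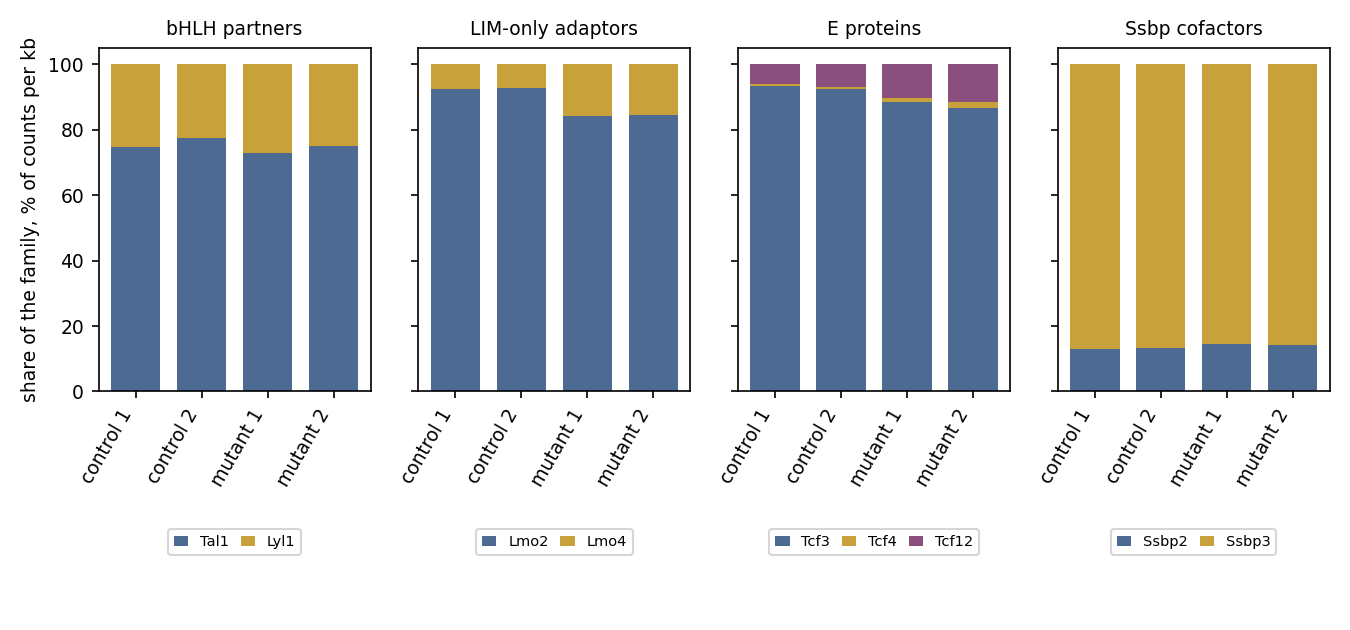
Share of each family's counts per kilobase of exon taken by each gene, one bar per library. Lmo4 takes 7.39% and 7.07% of the LIM-only pair in the controls and 15.9% and 15.4% in the mutants, and the Tcf3 share of the E proteins is lower in both mutants.

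Within families the makeup of the pool moved most for the LIM-only adaptors. Lmo4 took 7.39% and 7.07% of Lmo2 and Lmo4 counts per kilobase in the controls and 15.9% and 15.4% in the mutants. With the longest transcript as the length these shares were 11.7% and 11.3% and then 24% and 23.2%. The raw count ratio of Lmo2 to Lmo4 was 7.69 and 8.06 in the controls and 3.24 and 3.38 in the mutants, a difference of -1.25 on the log2 scale. Gene length and library size cancel in that difference. An exact two-sided permutation test of 2 against 2 libraries gave p = 0.33, the smallest it can give. The count ratio of Lmo2 to Ldb1 was 0.998 and 1.11 in the controls and 0.928 and 0.991 in the mutants, a much smaller difference of -0.14 on the log2 scale.

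Tcf3 made up 93.3% and 92.4% of E protein counts per kilobase in the controls and 88.4% and 86.8% in the mutants, or 88.2% and 86.7% and then 80.3% and 77.9% with the longest transcript as the length. The summed E protein level was 143.4 and 135.4 CPM per kilobase in the controls and 85.0 and 77.0 in the mutants. Tcf3 was thus the main E protein transcript in all 4 libraries, and the pool was smaller in both mutants. The share of Tal1 among Tal1 and Lyl1 was 74.7% and 77.4% in the controls and 72.9% and 75.1% in the mutants, and these groups overlapped. The count ratio of Ssbp2 to Ssbp3 was 0.18 and 0.186 in the controls and 0.207 and 0.201 in the mutants.

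The Id genes, whose products sequester E proteins, rose. Id1 had 19.1 and 17.3 CPM in the controls and 49.6 and 47.0 CPM in the mutants, with no overlap, a change of 1.41 ± 0.08 (adjusted p = 3.66e-10). Id2 had 41 and 24 counts in the controls and 113 and 60 in the mutants (1.57), and Id3 had 23 and 17 counts and then 90 and 45 (1.91). Id4 had 2 counts in control 2, none elsewhere, and was not tested. All 3 tested Id genes were called higher, against 28.3% of all tested genes, with a median of 1.57. Summed Id counts per summed E protein count were 0.0308 and 0.0285 in the controls and 0.122 and 0.121 in the mutants, a 4.10-fold higher ratio; the exact two-sided permutation p was 0.33, again the smallest possible. This ratio weighs genes by reads, so Id1 and Tcf3 carry most of it.

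Among 11 paralogs and DNA-binding partners of the complex, 7 were tested, 4 fell, 2 rose and 1 did not pass, with a median of -0.51. Of those tested, 85.7% were called, against 57.5% of all tested genes and 68.3% of those at or above the lowest member's mean level. All of those tested but Gata2 were at or above that level, where 47.8% of genes were called lower. Klf1, which acts with the complex at red cell genes, changed by -0.73, the GATA cofactor gene Zfpm1 by -0.55, Gata1, the GATA factor of the erythroid complex, by -0.55, and Ssbp4 by -0.51. The risers were Gata2, the GATA factor of earlier progenitors, from 4.26 and 3.30 CPM to 12.8 and 13.8 CPM (1.79), and Runx1 from 31.1 and 30.3 CPM to 63.3 and 63.2 CPM (1.04). Rlim, which encodes a ubiquitin ligase that targets Ldb proteins, had 134 and 176 CPM in the controls and 189.7 and 239 CPM in the mutants. The groups of Rlim did not overlap, but the libraries within each differed, and its change of 0.46 ± 0.24 did not pass (adjusted p = 0.242). Tal2, Lmo1, Lmo3 and Ldb2, the other relatives of the members, had at most 6 counts in any library and were not tested.

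Gata2 and Runx1 also belong, with Fli1 and Erg, to a set of factors that bind with Tal1, Lyl1 and Lmo2 at stem and progenitor cell enhancers. All 4 rose, against 28.3% of all tested genes, with a median of 1.65, while Tal1 and Lmo2 fell and Lyl1 did not pass. Fli1 went from 1.92 and 2.25 CPM to 23.2 and 17.8 CPM (3.32), and Erg, with 8 and 9 control counts and 24 and 19 mutant counts, changed by 1.5 and was not called with DESeq2 (adjusted p = 0.0796) or without control replicate 1 (adjusted p = 0.0644). Erg was scarce enough that the filter on low counts passed it through its mutant libraries. Megakaryocyte markers, a lineage that uses Fli1, Runx1 and Gata2, rose in 6 of 8 cases, against 28.3% of all tested genes, and Vwf fell. Their summed level was 111 and 109 CPM in the controls and 296 and 285 CPM in the mutants, and their part in these rises was not tested. Mast cell and basophil markers, where Gata2 is also expressed, summed to 0.235 and 0.596 CPM in the controls and 3.10 and 3.63 CPM in the mutants; of the 6, Cpa3 alone was tested, and it passed the filter only through its mutant libraries (4 and 5 control counts, 71 and 41 mutant counts), while Mcpt8, Fcer1a, Cma1 and Tpsb2 were at 0 in at least 1 library.

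**Figure D4:**
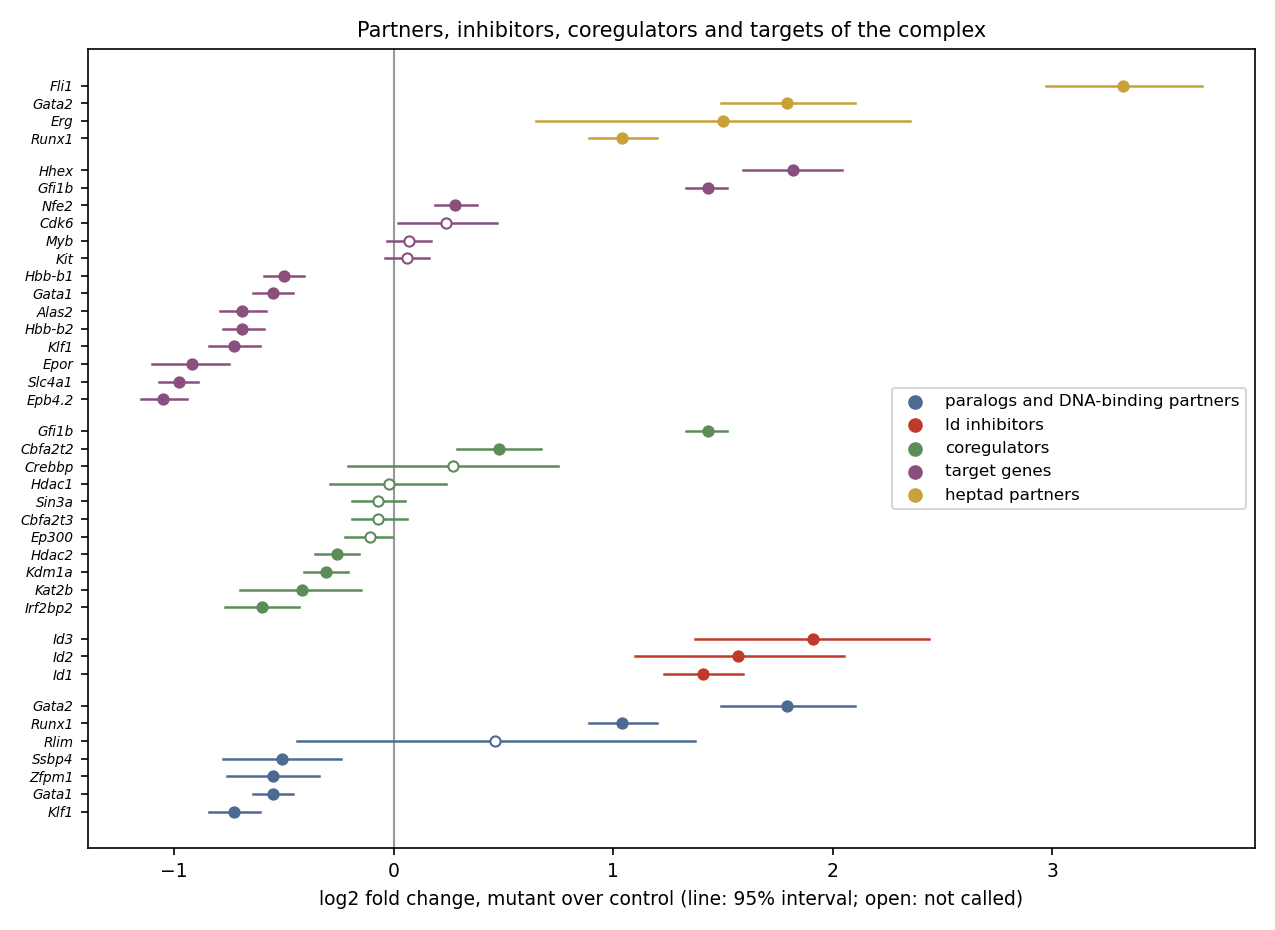
Log2 fold change of mutant over control with its 95% interval for tested genes of the 5 lists around the complex, open circles where the test was not passed. The 3 Id genes and the 4 partners at progenitor enhancers lie right of 0, and 8 of the 14 target genes drawn are called on the left.

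Of 11 coregulators recruited by the complex, 4 fell, 2 rose and 5 did not pass, with a median of -0.07. In all, 54.5% of them were called, against 57.5% of all tested genes and 68.3% of those at or above the lowest member's mean level. Gfi1b, a repressor that brings CoREST to its sites, changed by 1.43 and the corepressor gene Cbfa2t2 by 0.48. Irf2bp2 changed by -0.60, the acetyltransferase gene Kat2b by -0.42, the demethylase gene Kdm1a by -0.31 and the deacetylase gene Hdac2 by -0.26; Kat2b had adjusted p = 0.01 and was not called with DESeq2 (adjusted p = 0.0855), under library totals (0.0691) or without mutant replicate 2 (0.0887). Cbfa2t3, which encodes the ETO2 corepressor of the complex, had 73.3 and 72.3 CPM in the controls and 69.8 and 69.2 CPM in the mutants, and its change of -0.07 did not pass (adjusted p = 0.362), nor did those of Hdac1 (-0.02), Sin3a (-0.07), Ep300 (-0.11) and Crebbp (0.27).

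Established targets of the complex moved in both directions. Of 15, 9 fell, 3 rose and 3 did not pass, with a median of -0.50. The 80% called stands beside 57.5% of all tested genes and 68.3% of those at or above the lowest member's mean level. The largest falls were those of Epb4.2, the membrane protein gene for band 4.2, from 206 and 207 CPM to 102 and 97.8 CPM (-1.05), of the anion exchanger gene Slc4a1 (-0.98) and of the erythropoietin receptor gene Epor (-0.92). Alas2, the first enzyme of haem synthesis, changed by -0.69. The risers were the homeobox gene Hhex, from 7.27 and 6.65 CPM to 25.5 and 23.5 CPM (1.82), Gfi1b and Nfe2 (0.28). Kit (0.06), Myb (0.07) and Cdk6 (0.24) did not pass; all 3 passed under upper quartile scaling and under library totals, at up to 0.19, 0.21 and 0.38. Gfi1b, Gata1, Klf1, Gata2 and Runx1 each stand in 2 of the lists given here.

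Transcripts used as markers of other cell types that the sort could hold were also detected. Hepatoblast markers summed to 956 and 943 CPM in the controls and 1278 and 1294 CPM in the mutants. Of 9 tested, 6 were higher, against 28.3% of all tested genes. Mesenchymal markers summed to 5.59 and 5.78 CPM and then 18.8 and 17.5 CPM; most of them had so few control counts that the filter on low counts passed them through the mutant libraries, so no count of rises is given. Macrophage markers summed to 17.5 and 17.1 CPM and then 33.6 and 31.4 CPM. Of 8 tested, 3 were higher (Csf1r, Emr1 and Lyz2), against the same 28.3% of all tested genes. Serpina1a and Des were at 0 in at least 1 library. Whether such cells were present, and their part in the changes of the 10 genes, was not tested.

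The tested genes outside the complex whose pattern over the 4 libraries was closest to that of Tal1 included the kinase gene Akt1 and the mitochondrial ribosome gene Dap3. After centring each gene on its mean log2 CPM, their root mean square differences from Tal1 were 0.0022 and 0.0027, over 4 libraries in 2 groups. Akt1 had 471 and 463 CPM in the controls and 395 and 393 CPM in the mutants.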

How the data were processed

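The 2 control and 2 Rcor1 mutant pools were measured by mRNA sequencing. The submitters' processing notes name FastQC, Bowtie, edgeR and mm9. The authors deposited whole-number read counts per gene, taken as raw because totals differ between libraries, and a table of 13234 genes with log2 fold changes, p-values and FDR adjusted p-values, per the file headers. How strand and multiply mapped reads were handled was not stated in these sources, so overlapping genes are uncertain. Columns named WT were taken as the controls, by number.

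Of 35939 gene rows, 12 held NA and were left out. The quasi-likelihood test of edgeR 4.0.16 (R 4.3.3, limma 3.58.1) used filterByExpr, TMM factors of 0.951 to 1.05 and a robust glmQLFit, two-sided, with a threshold of 0.05; each standard error is the size of the log2 fold change divided by the root of its F. The fit was also run on simulated counts with a single variance setting for all genes and unlinked libraries. That run does not show how the fit behaves with the spread of these pools. Members and lists were chosen with earlier results of these data known. Named genes were all members, at most 3 rising and 3 falling genes per list, every gene of a count of 5 or fewer, and the 3 genes closest in pattern to Tal1 (pseudocount 0.5, mean of at least 10 CPM). Alas2 and the markers named were chosen after their values were seen. Some genes that these rules take in are not reported here. Exon lengths came from GENCODE M21 on GRCm38 and promoters from RefSeq on GRCm38.p6, matched by identifier and symbol, and no position was carried to mm9. Alternatives were RLE, upper quartile and total count scaling, TMM without globin genes, 2 other filters, DESeq2 1.42.0, limma-voom, the exact test of edgeR, no robust step, a replicate block, and leaving out each library.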

Additional observations from a re-analysis of the deposited data

How the results depend on the processing

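Over 15 alternatives of scaling, filter, test and left-out libraries, Tal1, Lmo2, Lmo4, Ldb1, Tcf3, Ssbp2 and Ssbp3 kept their direction and stayed under the threshold of 0.05, with highest adjusted p-values of 0.0227, 4.86e-05, 2.39e-07, 0.0469, 8.48e-08, 0.0467 and 1.2e-05. Tcf3 ran from -0.95 to -0.73 and Lmo4 from 0.82 to 1.00. Tcf4 passed in 13 of 15. Under library totals alone the number of lower genes was 2553, Lyl1 was at 0.06, Tcf12 at 0.10, Cbfa2t3 at 0.07, Hdac1 at 0.11, Sin3a at 0.07 and Ep300 at 0.02. Under upper quartile scaling Tcf12 was at 0.04, Cbfa2t3 at 0.01, Hdac1 at 0.05 and Sin3a at 0.01. None of these sign changes was called, and the median of all genes was at 0.15 and 0.09 under these scalings. With single libraries left out, the number of members called higher ran from 1 to 2 as Tcf4 was lost, Lyl1 ran from -0.20 to 0.03 and was 0.01 without mutant replicate 2, and Hdac1 ran from -0.11 to 0.05 and was 0.04 without mutant replicate 2. A fit that leaves a group with 1 library assumes that it varies like the other group. Rlim passed in the exact test, in limma-voom, without the robust step, with the replicate block and without each control replicate in turn. The labels do not say that replicate numbers pair the pools. Deviations of same-numbered libraries from their group means had a correlation of 0.47 across 8343 genes, and a fit with the replicate number as a block called 4135 genes higher and 4267 lower, with the same number of members, 2 higher and 6 lower. Of the genes in the lists around the complex the block called 14 higher and 16 lower, against 11 and 15 without it, adding Rlim (0.47), Crebbp (0.29, adjusted p = 0.000149), Cdk6 (0.24, adjusted p = 0.000824) and Ep300 (-0.11, adjusted p = 0.0223). In 2 groups of 2 libraries the smallest permutation p is 0.33, which says nothing on the stability of the count ratios.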
